A study of Mus musculus with 16 samples.

Results

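The S100a4-high myeloid cells described here were the tenth of the myeloid cells of each bone marrow stromal cell (BMSC) culture that carried the most transcripts of 5 genes: S100a4, Napsa, Lsp1, Coro1a and Tgfbi. A cell was counted as myeloid when it had at least 500 detected genes, under 20% mitochondrial unique molecular identifiers (UMIs, the tags that count single RNA molecules), at least 80 UMIs of Lyz2, Tyrobp, Fcer1g, C1qa, C1qb and C1qc together per 10000 gene UMIs, and under 25 UMIs of the stromal genes Col1a1, Col1a2, Sparc, Tagln and Tpm2 together per 10000. The 5-gene score was summed on the same scale, and the top 10% of the myeloid cells of each sample with a score above 0 were taken. In all, 1374 of 13823 myeloid cells were chosen, among 15847 cells that passed the filters on genes and mitochondrial UMIs, of 17793 barcodes in 15 samples, and the other 12449 myeloid cells of the same samples served for comparison.

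The cultures came from 12-week-old male C57BL/6J littermates of 4 genotypes, every one of them homozygous for a floxed first exon of Fgf23. WT mice had intact Dmp1 and no cre, Fgf23cKO mice had intact Dmp1 and the Dmp1-cre transgene, Dmp1KO mice lacked both copies of Dmp1 and had no cre, and Dmp1KO/Fgf23cKO mice lacked Dmp1 and carried the cre. The Dmp1 promoter drives cre in mature osteoblasts and osteocytes, so that the deletion of Fgf23 was not aimed at myeloid cells. The Dmp1 knockout is global, so that myeloid cells carried it too. Cells adhering to the dish were grown for 21 days in osteogenic medium with ascorbic acid and 10 mM β-glycerophosphate. They were labelled with a culture tag, sorted for live cells and sequenced in 1 droplet reaction per genotype. A genotype and its reaction therefore cannot be told apart. Tests rested on 11 tagged cultures, 3 WT, 3 Fgf23cKO, 2 Dmp1KO (replicates 2 and 3) and 3 Dmp1KO/Fgf23cKO, which held 1204 of the chosen cells and 10895 of the other myeloid cells. Per the study's methods, 3 individual cultures were taken per genotype. The sources give 3 mice per genotype but the labels do not tie each culture to a mouse, so that p-values measure the spread between these cultures.

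S100 proteins are small calcium-binding proteins that bind other proteins when calcium rises, and S100A4 is known for binding nonmuscle myosin and for its abundance in motile cells, monocytes, fibroblasts and some tumor cells. NAPSA is an aspartic protease of the endosomal and lysosomal system, LSP1 and CORO1A bind filamentous actin in leukocytes, and TGFBI is a matrix protein made by macrophages and stromal cells. Adherent marrow cultures hold macrophages beside the stromal cells, and in mice S100a4, Napsa, Lsp1 and Coro1a are known to be higher in monocytes and their recent progeny than in mature tissue macrophages.

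The name monocyte was checked against defining markers, and some of them were absent or almost absent. Ly6c2, a surface protein of classical monocytes, had 2 UMIs among the 30373915 gene UMIs of the chosen cells in the 11 cultures, and Plac8, another gene of classical monocytes, had 1. Chil3, also listed for classical monocytes, had 0 UMIs in the chosen and in the other cells. Of the 9 genes listed for classical monocytes, 5 had enough counts to be tested. Macrophage genes were present in every culture: Adgre1, which encodes F4/80, was 355 to 573 CPM (counts of a gene per 1000000 gene UMIs summed over the cells), and Csf1r, the receptor for the macrophage growth factor CSF1, was 615 to 843 CPM. Other genes of monocytes, among them Ccr2, F13a1, Fn1, Vcan and Spn, were detected and are described below. With markers of both kinds in view, the cells are called by their leading gene. Because they were cut from a continuous score they are a range of cells, not a type.

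The 2 targeted genes were read first. Dmp1, the gene of a matrix protein of osteocytes, had 314, 347 and 1524 UMIs in the stromal cells of the 3 WT cultures, 841, 680 and 85 in Fgf23cKO, 0 and 1 in Dmp1KO and 63, 36 and 25 in Dmp1KO/Fgf23cKO. Per 1000000 stromal UMIs the Dmp1KO/Fgf23cKO cultures held 17.6, 6.54 and 8.91, against 366, 589 and 914 in WT. Fgf23 had 0 to 8 UMIs in the myeloid cells of a culture and 0 or 1 in the stromal cells, too few to check its deletion.

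Depth differed between genotypes and, less, between the chosen and the other cells. A culture held 9518928 to 72482185 gene UMIs, of which the chosen cells contributed 990346 to 6318818. The median UMI count of a chosen cell was 9846, 9048 and 9448 in WT, 49928, 55099 and 41727 in Fgf23cKO, 23106 and 23063 in Dmp1KO and 45441, 39708.5 and 47492 in Dmp1KO/Fgf23cKO. For the other myeloid cells it was 6989, 7108 and 7488 in WT, 35283, 38100 and 33992 in Fgf23cKO, 23201 and 20745 in Dmp1KO and 35357, 35620.5 and 35218 in Dmp1KO/Fgf23cKO. Chosen cells were thus deeper than the others in 10 of 11 cultures, and WT cells were the shallowest. No barcode was shared between samples of the same reaction (21 pairs of samples), and 35 were shared over 84 pairs of samples of different reactions.

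The score was led by S100a4. S100a4 gave 61.3% to 83.7% of the score UMIs of the chosen cells of a culture and was the most abundant score gene in 87.1% to 100% of them. The lowest score taken and the highest score not taken were 13.6 and 13.3 per 10000 in WT replicate 1, 11.8 and 11.8 in Fgf23cKO replicate 2, 22.1 and 22.1 in Dmp1KO replicate 3 and 8.76 and 8.68 in Dmp1KO/Fgf23cKO replicate 2, so there was no gap at the limit. In Dmp1KO, where the chosen cells were most numerous, 76 and 58 of them lay within 10% of the limit, beside 84 and 72 of the others. The median score of the others was 1.94 to 3.48 per 10000 in 9 cultures and 8.23 and 7.84 in the 2 Dmp1KO cultures, whose myeloid cells as a whole lay higher on the score.

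S100a4 and S100a6 are neighbours in the S100 gene cluster of mouse chromosome 3. S100a4 led the score that chose the cells, and S100a6 took no part in it. S100a4 lies at chr3:90603771-90606045 and S100a6 at chr3:90612882-90624181, both on the plus strand of mm10, with S100a5 between them at chr3:90608523-90611780, and the RefSeq starts of S100a4 and S100a6 are 9124 bases apart. S100a3 lies on the other side of S100a4 at chr3:90560578-90602702, and S100a10, outside this group of neighbours, at chr3:93555080-93564643. The 250 bases before each RefSeq start (build GRCm38.p6, plus strand, 5′ to 3′) are shown because the pair is compared throughout the results, with a match to TATAAA in capitals.
S100a4, chr3:90603520-90603769: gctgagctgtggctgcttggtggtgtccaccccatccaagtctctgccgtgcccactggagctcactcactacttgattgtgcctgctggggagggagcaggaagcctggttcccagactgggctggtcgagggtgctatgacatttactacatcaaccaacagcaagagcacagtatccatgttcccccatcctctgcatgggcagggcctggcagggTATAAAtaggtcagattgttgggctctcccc
S100a6, chr3:90612644-90612893: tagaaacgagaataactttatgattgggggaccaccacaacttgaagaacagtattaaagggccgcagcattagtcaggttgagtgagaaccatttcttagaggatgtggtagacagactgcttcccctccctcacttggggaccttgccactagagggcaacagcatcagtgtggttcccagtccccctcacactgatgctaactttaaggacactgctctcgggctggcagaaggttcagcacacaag
The S100a4 window holds 1 TATAAA, which begins 31 bases before the start, and the S100a6 window holds none. Searched on both strands, neither window holds TGANTCA, the letters bound by AP-1 factors, or GAGGAAGT, letters bound by PU.1. Of all 32851 mouse promoter windows of this length, 12.4% hold TATAAA, 6.75% TGANTCA and 2.44% GAGGAAGT.

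The 5 score genes are given as a description, since they chose the cells. S100a4 was 2183, 2013 and 2229 CPM in WT, 2469, 1844 and 2911 in Fgf23cKO, 2009 and 2226 in Dmp1KO and 1328, 1179 and 1885 in Dmp1KO/Fgf23cKO in the chosen cells. In the other myeloid cells S100a4 was 124, 106 and 105 CPM in WT, 200.2, 138 and 356 in Fgf23cKO, 502 and 491 in Dmp1KO and 90.9, 58.5 and 96.9 in Dmp1KO/Fgf23cKO. The ratio of the first to the second was 8.18 to 21.2 in WT, Fgf23cKO and Dmp1KO/Fgf23cKO and 4.002 and 4.53 in Dmp1KO, where the others carried the most S100a4. Lsp1 was 199, 181 and 211 CPM in WT, 64.7, 77.04 and 104 in Fgf23cKO, 224 and 206 in Dmp1KO and 144, 168 and 131 in Dmp1KO/Fgf23cKO, against 9.27 to 95.6 CPM in the others. Coro1a was 219 to 404 CPM against 103 to 218 CPM, Tgfbi 108 to 162 CPM against 60.4 to 84.3 CPM, and Napsa 14.1 to 72.01 CPM against 6.12 to 60.5 CPM. Tgfbi differed by ratios of 1.29 to 2.40 over the 11 cultures and Napsa by 1.19 to 4.60. In the 2 Dmp1KO cultures Napsa differed by ratios of 1.19 and 1.24.

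To see the genes apart from their own part in the choice, cells were chosen again by the 4 other score genes. The score was set with earlier results of these data known. The ratios therefore describe how its genes vary together and are not independent evidence. S100a4 was then 1.78 to 7.22 times as high in the chosen as in the other cells, Lsp1 1.75 to 7.94 times, Coro1a 1.51 to 2.25 times, Tgfbi 1.08 to 2.10 times and Napsa 1.08 to 4.37 times. Without S100a4 in the score, 30.8% to 54.8% of the chosen cells of a culture were chosen again. In cells thinned to 2000 UMIs, S100a4 had a UMI in 80.3 to 97.9% of the chosen cells, 7.95 to 49.3% of the other myeloid cells and 30 to 65% of the stromal cells of a culture. At full depth the shares were 96.05 to 100%, 26.1 to 86.7% and 70.6 to 100%. S100a4 is a gene of the stromal cells too, and the part of free stromal RNA in the S100a4 of myeloid droplets was not tested. Genes of stromal cells outside the rule were 59.98 to 169.97 CPM in sum in the chosen cells and 87.6 to 233 CPM in the others, lower in the chosen cells in 10 of 11 cultures.

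**Figure D1:**
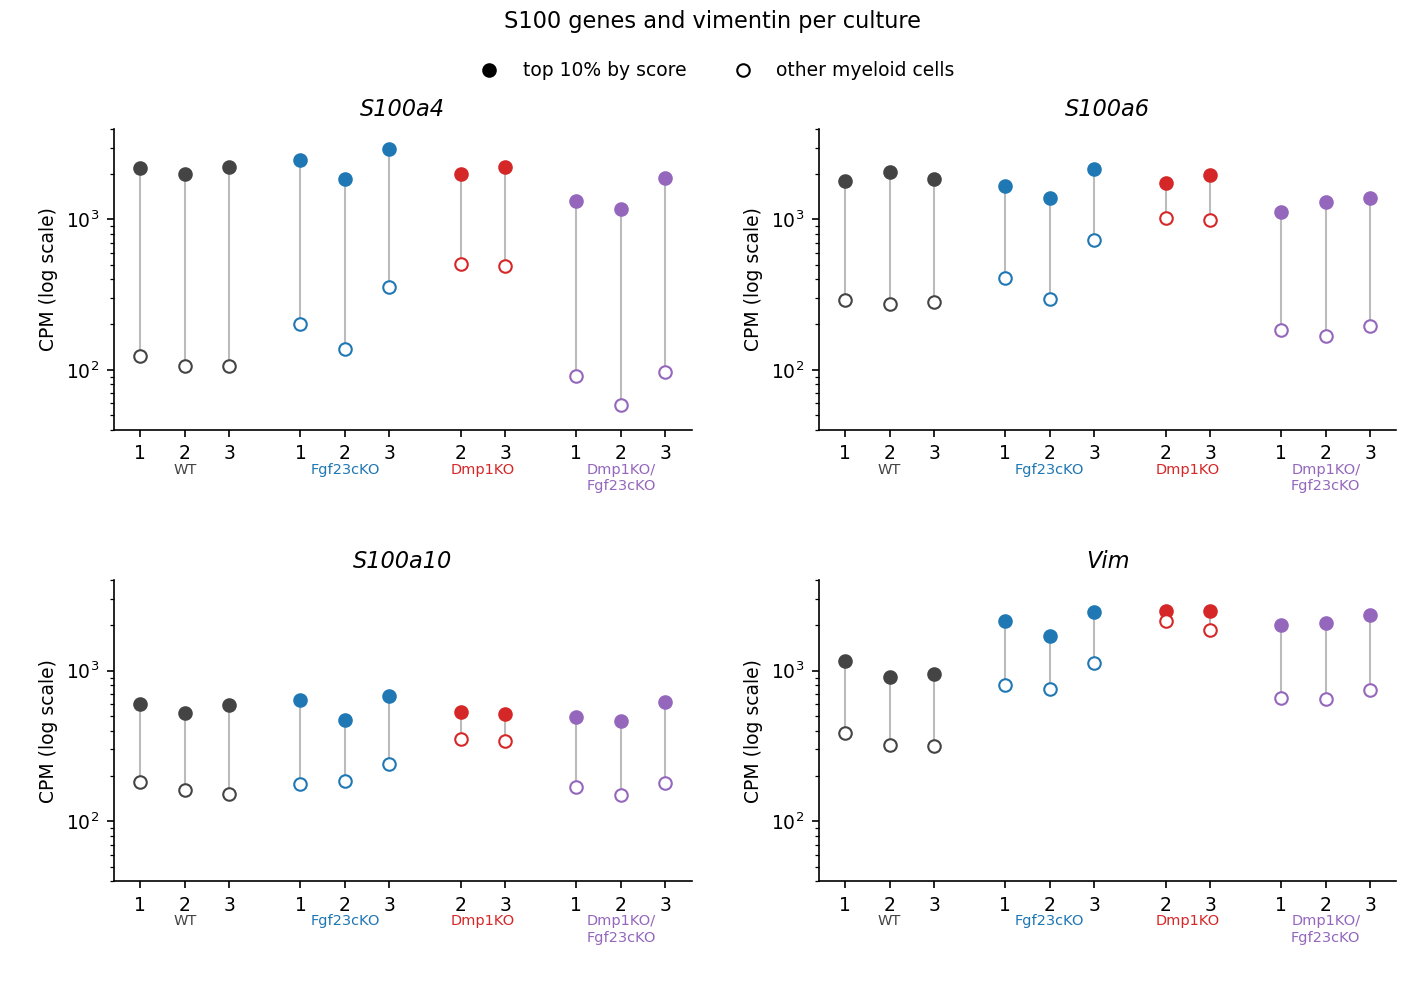
CPM (log scale) of S100a4, S100a6, S100a10 and Vim in the top 10% by score (filled) and the other myeloid cells (open) of the same culture, joined by a line, for the 11 tagged cultures numbered by replicate. S100a4 is a score gene and the other genes are not. The lines are shortest in the 2 Dmp1KO cultures, where the open circles lie higher, at 1013 and 989.7 CPM for S100a6.

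Genes outside the score were compared between the chosen and the other cells of the same culture. S100a6, a calcium-binding protein that binds annexins and tropomyosin, was 1784, 2055 and 1866 CPM in WT, 1664, 1396 and 2153 in Fgf23cKO, 1734 and 1981 in Dmp1KO and 1111, 1299 and 1385 in Dmp1KO/Fgf23cKO in the chosen cells and 291, 275 and 280.03 CPM in WT, 406, 297 and 729 in Fgf23cKO, 1013 and 989.7 in Dmp1KO and 184, 168 and 194 in Dmp1KO/Fgf23cKO in the others. S100a6 was higher in the chosen cells of all 11 cultures, its 2 ranges did not overlap, and the gap was narrowest in Dmp1KO. The fitted log2 difference was 2.24 ± 0.24 (SE, n = 11, adjusted p = 3.24e-05, edgeR's quasi-likelihood test with the culture as a block). At the threshold of the study, an adjusted p under 0.1, 24.1% of the 12724 genes tested were higher in the chosen cells and 24.7% lower, and the log2 difference of the median gene was -0.019. In all 11 cultures alike, 872 genes (6.85%) were higher and 952 (7.48%) lower. Cells were ranked on counts of the same cells, so these calls describe how genes vary along the score and are not independent evidence for a distinct cell population. The named genes were those with the largest fitted differences among genes called, moving the same way in all 11 cultures and reaching 50 CPM, and all 24 kept their direction and their call in each alternative run.

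S100 genes outside the score were mostly higher. Of 6 tested members, 4 were higher and 1 lower, with a median log2 difference of 0.78. S100a10, which holds annexin A2 at the membrane as its partner, was 597, 520.1 and 589 CPM in WT, 639, 471 and 683 in Fgf23cKO, 532 and 518 in Dmp1KO and 495, 466 and 622 in Dmp1KO/Fgf23cKO in the chosen cells and 183, 162 and 152 CPM in WT, 178, 184 and 240.3 in Fgf23cKO, 353 and 343 in Dmp1KO and 169, 149 and 179 in Dmp1KO/Fgf23cKO in the others. These ranges did not overlap (log2 1.4996 ± 0.14, higher in 11 of 11 cultures, edgeR adjusted p = 5.24e-06). S100a11, another annexin partner, was 456, 548 and 508 CPM in WT, 299, 245 and 432 in Fgf23cKO, 617 and 649 in Dmp1KO and 319.9, 268 and 299 in Dmp1KO/Fgf23cKO against 160.1, 145 and 187 CPM in WT, 154, 156 and 219.8 in Fgf23cKO, 647 and 592 in Dmp1KO and 122, 108 and 119 in Dmp1KO/Fgf23cKO. S100a11 was higher in the chosen cells of WT, Fgf23cKO and Dmp1KO/Fgf23cKO, while in Dmp1KO the values lay side by side (log2 1.07 ± 0.18 over the 11 cultures). S100a13 was higher by 0.48 ± 0.047 and S100a1 lower, at -0.12 ± 0.050 on the log2 scale. S100a8, a gene of neutrophils and monocytes, was 2.89 to 19.1 CPM in the chosen cells and 3.61 to 21.3 CPM in the others, and S100a9 had 0 UMIs in the chosen cells, which allows up to 0.0988 CPM over their 30373915 gene UMIs.

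Vimentin, several annexin-related genes and most actin cytoskeleton genes were higher. Of 15 genes of the annexin and related list 10 were higher and 2 lower (median 0.53), and of the 8 annexins among them 4 were higher, 2 lower and 2 neither. Vim, the intermediate filament protein vimentin, was 1158, 915 and 957 CPM in WT, 2155, 1692 and 2459.6 in Fgf23cKO, 2476 and 2497 in Dmp1KO and 2018, 2086 and 2337 in Dmp1KO/Fgf23cKO in the chosen cells and 385, 322 and 316 CPM in WT, 809.7, 756 and 1134 in Fgf23cKO, 2131 and 1855 in Dmp1KO and 661, 652 and 745 in Dmp1KO/Fgf23cKO in the others. Vim was higher in the chosen cells of every culture, with ratios of 2.17 to 3.20 outside Dmp1KO and of 1.16 and 1.35 within it (log2 1.30 ± 0.15). Higher as well were Crip1, a small LIM protein (log2 1.30 ± 0.15), Anxa2, the membrane-binding partner of S100A10 (0.97 ± 0.14), Anxa1, a regulator of inflammation (0.94 ± 0.22, higher in 9 of 11 cultures), the scaffold gene Ahnak (0.66 ± 0.065) and the galectin Lgals1 (0.64 ± 0.061). Anxa6 (-0.38 ± 0.070) and Anxa3 (-0.16 ± 0.056) were lower, and Lgals3, a galectin of macrophages, did not pass the test (0.079 ± 0.15). Of 26 actin cytoskeleton genes 19 were higher and 0 lower, with a median of 0.22. Actb, β-actin, was 7144 to 11130.5 CPM in the chosen cells and 5176 to 7928 CPM in the others (0.51 ± 0.051), Actg1 was higher by 0.58 ± 0.072, the actin monomer-binding Tmsb10 by 0.77 ± 0.24 and the GTPase inhibitor Arhgdib by 0.54 ± 0.045.

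Cell cycle genes were higher as a list. All 18 tested genes of S and G2M phase were higher in the chosen cells, with a median log2 difference of 1.34. Birc5, survivin of the mitotic spindle complex, was 153, 90.7 and 116 CPM in WT, 212, 149 and 174 in Fgf23cKO, 96.2 and 85.8 in Dmp1KO and 137, 101 and 136 in Dmp1KO/Fgf23cKO in the chosen cells and 39.6, 37.1 and 35.1 CPM in WT, 42.3, 49.4 and 39.2 in Fgf23cKO, 80.5 and 68.5 in Dmp1KO and 32.1, 23.9 and 27.4 in Dmp1KO/Fgf23cKO in the others. Birc5 was higher in the chosen cells of each culture, by little in Dmp1KO (log2 1.66 ± 0.24). Mki67, the gene of the proliferation antigen Ki-67, was 204, 123 and 154 CPM in WT, 345, 316 and 347 in Fgf23cKO, 139 and 94.1 in Dmp1KO and 286, 240.4 and 266 in Dmp1KO/Fgf23cKO against 71.6, 71.7 and 63.3 CPM in WT, 107, 136 and 90.5 in Fgf23cKO, 113 and 91.2 in Dmp1KO and 85.5, 64.1 and 70.3 in Dmp1KO/Fgf23cKO. For Mki67 the gap was wide in 3 genotypes and small in Dmp1KO, down to 94.1 against 91.2 CPM (log2 1.33 ± 0.20). Ube2c, the ubiquitin-conjugating enzyme of the anaphase complex, was higher by 1.59 ± 0.29, the cyclin Ccnb2 by 1.54 ± 0.20, the kinetochore gene Cenpf by 1.48 ± 0.25, the spindle gene Tpx2 by 1.41 ± 0.25, the spindle and hyaluronan receptor gene Hmmr by 1.40, the replication factor Pclaf by 1.602 and Cdca3 by 1.40. Cells whose S and G2M genes reached 10 UMIs per 10000 were 31.1% to 38.2% of the chosen cells in WT, 35.6% to 48.5% in Fgf23cKO, 24.0% and 21.5% in Dmp1KO and 29.0% to 41.0% in Dmp1KO/Fgf23cKO. The shares among the other cells were 11.2% to 12.6%, 10.05% to 12.04%, 16.1% and 13.4%, and 6.01% to 7.88%. Cycling cells also hold more RNA, and the part of depth in these shares was not tested beyond thinning, described with the genotypes.

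The other named genes that were higher were Plp2, a membrane protein of the endoplasmic reticulum, and Tnip3, an inhibitor of NF-κB signalling. Plp2 was 185, 196 and 188 CPM in WT, 260.4, 169.7 and 253 in Fgf23cKO, 177 and 153 in Dmp1KO and 218, 189 and 233 in Dmp1KO/Fgf23cKO in the chosen cells and 50.02, 43.5 and 46.5 CPM in WT, 63.03, 56.3 and 88.5 in Fgf23cKO, 123 and 109.98 in Dmp1KO and 44.5, 37.9 and 46.4 in Dmp1KO/Fgf23cKO in the others. The ranges of Plp2 did not overlap (log2 1.76 ± 0.21). Tnip3 was 95.1 to 172 CPM against 33.8 to 75.4 CPM (log2 1.61 ± 0.16). For Tnip3 the gap was as wide in Dmp1KO, 153 and 149 against 43.3 and 46.7 CPM, as in WT. Of 77 cytosolic ribosomal protein genes 76 were higher and 0 lower, with a median of 0.48, and Rpl22l1 differed most among those named here (0.96 ± 0.081).

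**Figure D2:**
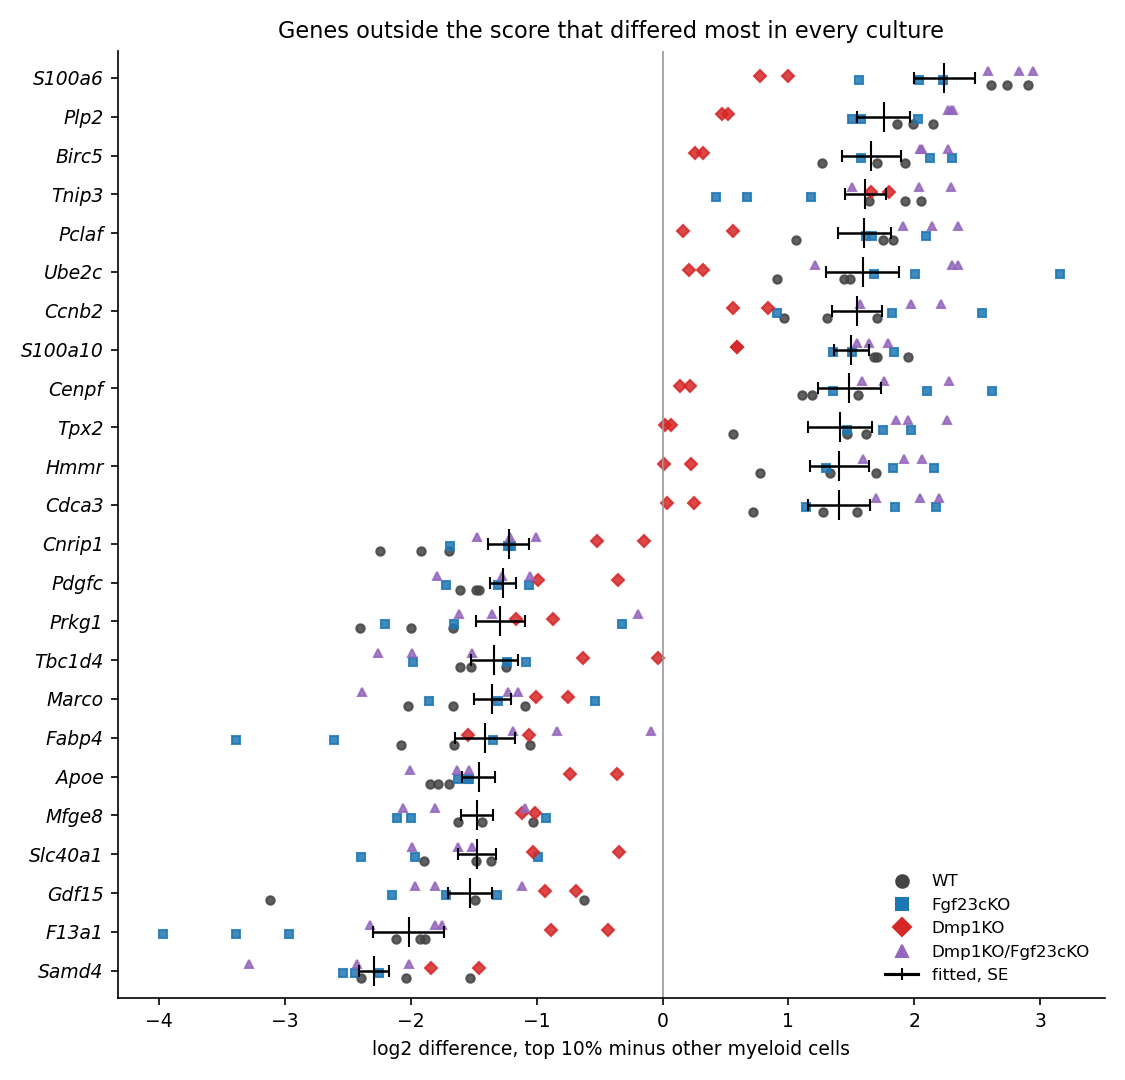
Log2 difference between the top 10% by score and the other myeloid cells for the 24 named genes outside the score, 1 point per tagged culture (pseudocount 1 CPM), with the fitted value over 11 cultures and its SE as a bar. Every point lies on the same side of 0 as its fitted value, and the Dmp1KO points lie nearest to 0 for most genes, for S100a6 below 1.1.

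The 12 named genes that were lower held 2 of the macrophage list, Apoe and Marco, and 1 of the classical monocyte list, F13a1. Apoe, the lipid carrier that macrophages secrete, was 5233, 6008 and 5959 CPM in WT, 5039, 5680.4 and 3706 in Fgf23cKO, 7797 and 6873 in Dmp1KO and 7422, 7464 and 5542 in Dmp1KO/Fgf23cKO in the chosen cells and 18805, 20661 and 19302 CPM in WT, 15515, 16618 and 10773 in Fgf23cKO, 10022 and 11413 in Dmp1KO and 21486, 23181 and 22273 in Dmp1KO/Fgf23cKO in the others. Apoe was lower in the chosen cells of all 11 cultures without overlap of the ranges (log2 -1.46 ± 0.13, edgeR adjusted p = 3.71e-06). F13a1, the factor XIII subunit of tissue-resident macrophages and monocytes, was 126, 132 and 109.5 CPM in WT, 40.2, 65.2 and 14.9 in Fgf23cKO, 61.2 and 82.4 in Dmp1KO and 176, 164 and 110.2 in Dmp1KO/Fgf23cKO against 483, 489 and 479.6 CPM in WT, 431, 517 and 247 in Fgf23cKO, 83.02 and 153 in Dmp1KO and 618, 555 and 556 in Dmp1KO/Fgf23cKO. F13a1 was lower throughout, and low also in the others of the Dmp1KO cultures (log2 -2.02 ± 0.28). Samd4, an RNA-binding repressor of translation, was 15.1, 19.8 and 11.6 CPM in WT, 13.2, 11.9 and 8.21 in Fgf23cKO, 3.64 and 4.998 in Dmp1KO and 22.1, 31.3 and 13.95 in Dmp1KO/Fgf23cKO against 65.4, 59.2 and 65.1 CPM in WT, 81.6, 60.4 and 48.9 in Fgf23cKO, 11.8 and 20.4 in Dmp1KO and 123, 129.6 and 144 in Dmp1KO/Fgf23cKO, the named gene that differed most (log2 -2.29 ± 0.12). Lower as well were Gdf15, a stress-induced cytokine (-1.53), Slc40a1, the iron exporter ferroportin (-1.47), Mfge8, which bridges apoptotic cells to phagocytes (-1.47), the fatty acid-binding Fabp4 (-1.41 ± 0.24), the scavenger receptor Marco (-1.35 ± 0.15), the Rab regulator Tbc1d4 (-1.34), the cGMP-dependent kinase Prkg1 (-1.29), the growth factor Pdgfc (-1.27) and Cnrip1, which binds the cannabinoid receptor (-1.22).

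Of 15 tested macrophage genes 10 were lower and 1 higher, with a median of -0.59. Mrc1, the mannose receptor, was 674, 766 and 655 CPM in WT, 571, 792 and 507 in Fgf23cKO, 276 and 354 in Dmp1KO and 773, 832 and 834 in Dmp1KO/Fgf23cKO in the chosen cells and 1526, 1540.2 and 1438 CPM in WT, 1259, 1403 and 976 in Fgf23cKO, 254 and 418 in Dmp1KO and 1533, 1544 and 1426 in Dmp1KO/Fgf23cKO in the others. Mrc1 was lower in the chosen cells of 3 genotypes, and in Dmp1KO 1 culture lay above its others and 1 below (log2 -0.79 ± 0.10). Selenop, a selenium carrier of resident macrophages, was lower, at -1.21 ± 0.16, the efferocytosis receptor Mertk at -0.96 ± 0.11, and Adgre1 at -0.23 ± 0.11, although Adgre1 was higher in the chosen cells of both Dmp1KO cultures, 355 and 391 against 242 and 294 CPM. Folr2, a folate receptor of resident macrophages, was the member that was higher, by 0.65 ± 0.10 in 10 of 11 cultures. Csf1r (-0.12 ± 0.073), the scavenger receptor gene Cd163 (-0.49 ± 0.24), Cd68 (-0.12 ± 0.060) and the Fc receptor gene Fcgr1 (-0.031 ± 0.079) did not pass the test. Summed over the list, macrophage genes were 9254 to 13448 CPM in the chosen cells and 15076 to 32321 CPM in the others, with Apoe the most abundant.

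Lipid-associated macrophage genes, such as those of foam cells, were lower in 9 and higher in 2 of 14. Among them Fabp5 was lower, at -0.90 ± 0.094, Gpnmb, a membrane glycoprotein of lipid-laden macrophages, at -0.76 ± 0.083 and the lipid receptor Trem2 at -0.32 ± 0.045, while Lpl, lipoprotein lipase, was higher by 0.52 ± 0.22. Of 18 lysosome genes 13 were lower and 1 higher, with the protease genes Ctsd at -0.68 ± 0.055 and Ctsb at -0.57 ± 0.057. Of 19 myeloid transcription factors 10 were lower (52.6%, against 24.7% of all genes) and 4 higher, a share of 21.1% near the 24.1% of all genes. Cebpa, a factor of early myeloid fate, was lower, at -0.68 ± 0.068, the macrophage factor Maf at -0.61 ± 0.11 and Irf8 at -0.497 ± 0.059, and the factors that were higher were Spi1, which encodes PU.1 (0.16 ± 0.046), Klf2 (0.39 ± 0.10), Klf4 (0.29 ± 0.097) and Runx3 (0.53 ± 0.11).

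A minority of the chosen cells carried genes of other myeloid states, and Ccr2 was the clearest of them. Ccr2, the chemokine receptor that draws monocytes out of the marrow, lies at chr9:124101950-124113557 and was 87.8, 106 and 129 CPM in WT, 22.6, 7.54 and 9.74 in Fgf23cKO, 6.65 and 12.9 in Dmp1KO and 3.44, 40.9 and 16.4 in Dmp1KO/Fgf23cKO in the chosen cells, against 0.190 to 1.33 CPM in the others. The ranges of Ccr2 did not overlap, and the 3 WT cultures were the highest (log2 4.91 ± 0.46, higher in 11 of 11 cultures, edgeR adjusted p = 1e-05). A Ccr2 UMI was found in 15 of 89, 29 of 177 and 28 of 148 chosen cells of the WT cultures (16.9%, 16.4% and 18.9%) and in 0.743%, 0.625% and 0.822% of the others, and in 1 of 420 stromal cells over the 11 cultures, whose median depth was 13751.5 to 125871.5 UMIs. In cells thinned to 2000 UMIs the WT shares were 8.99%, 10.98% and 12.3%. Outside WT a Ccr2 UMI was found in 2.86% to 11.1% of the chosen cells and 0.707% to 2.78% of the others, and these shares of the chosen cells rest on 1 to 5 cells a culture in Fgf23cKO and Dmp1KO/Fgf23cKO and on 8 and 17 in Dmp1KO. Of the 5 tested classical monocyte genes, Ccr2 and the proteoglycan gene Vcan (log2 0.99 ± 0.38, higher in 7 of 11 cultures, 0.490 to 7.07 CPM) were higher, F13a1 lower, and Fn1 (-0.057 ± 0.15) and Hp (-0.42 ± 0.27) did not pass. Their 9-gene list summed to 54.9 to 257 CPM in the chosen cells and 135 to 634 CPM in the others.

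Genes of patrolling monocytes were higher in 3 and lower in 3 of 8 tested (37.5% each, beside 24.1% and 24.7% of all genes). Spn, the surface sialoprotein CD43 of patrolling monocytes, was 10.8 to 26.9 CPM in the chosen cells and 1.90 to 8.18 CPM in the others (log2 2.10 ± 0.24, higher in 11 of 11 cultures), and Cd300e, an activating receptor, was higher by 2.82 ± 0.47 in 11 of 11. Adgre4 was higher by 1.06 ± 0.49 in 7 of 11, and Nr4a1, the factor on which patrolling monocytes depend, was lower (-0.74 ± 0.20), as were Treml4 (-0.48 ± 0.20) and Pou2f2 (-0.49 ± 0.12). Of 13 trafficking receptor and integrin genes 4 were higher (30.8%) and 2 lower (15.4%), beside 24.1% and 24.7% of all genes. The higher ones were Ccr2, the integrin subunits Itgb7 (2.31 ± 0.36) and Itgb1 (0.29 ± 0.050) and the selectin ligand Selplg (0.42 ± 0.071). The lower ones were Cxcr4, the receptor that holds cells in the marrow (-0.84 ± 0.15), and Itga4 (-0.19 ± 0.072).

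MHC class II genes, which present peptides to CD4+ T cells, were higher in 5 and lower in 0 of 8 (median 2.48), and in 0 and 1 of 8 when the cells with any UMI of granulocyte, lymphocyte, mast cell or defining dendritic cell genes were left out. H2-Aa was 77.8, 55.9 and 167 CPM in WT, 9.32, 33.9 and 46.2 in Fgf23cKO, 42.6 and 44.98 in Dmp1KO and 8.88, 36.9 and 0.962 in Dmp1KO/Fgf23cKO in the chosen cells and 2.24, 1.49 and 2.83 CPM in WT, 1.21, 12.2 and 0.343 in Fgf23cKO, 23.8 and 21.7 in Dmp1KO and 0.348, 1.71 and 0.964 in Dmp1KO/Fgf23cKO in the others. H2-Aa was high in WT and lower elsewhere, and in Dmp1KO/Fgf23cKO replicate 3 it did not exceed the others (log2 3.27 ± 0.69). Cd74, the invariant chain, was 309.99, 221 and 476 CPM in WT, 112, 182 and 181 in Fgf23cKO, 182 and 169 in Dmp1KO and 94.8, 85.5 and 18.8 in Dmp1KO/Fgf23cKO against 13.4, 8.01 and 12.01 CPM in WT, 4.12, 45.2 and 2.47 in Fgf23cKO, 116 and 124 in Dmp1KO and 5.76, 10.8 and 21.7 in Dmp1KO/Fgf23cKO, higher in 10 of 11 cultures (log2 3.14 ± 0.70). H2-Eb1 (3.33 ± 0.67), H2-Ab1 (2.73 ± 0.56) and Ciita, the factor that turns these genes on (2.24 ± 0.61), were higher too. Cells in which MHC class II genes reached 10 UMIs per 10000 numbered 9, 15 and 17 among the chosen cells of WT (10.1%, 8.47% and 11.5%, against 0.373% to 0.620% of the others), and 8, 12 and 14 of them also had a Ccr2 UMI. In Dmp1KO they numbered 15 and 10 (5.81% and 4.13%, against 4.73% and 4.54%), with 0 and 3 also bearing Ccr2. They numbered 1, 1 and 1 in Fgf23cKO and 2, 1 and 0 in Dmp1KO/Fgf23cKO, so that the values of these cultures rest on few cells. This limit and the next were chosen after the values were seen.

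Osteoclast genes were higher in 4 and lower in 1 of 7 (median 1.82), with large differences between cultures. Acp5, the phosphatase TRAP of osteoclasts, was 139, 57.1 and 283 CPM in WT, 278, 32.9 and 48.2 in Fgf23cKO, 15.4 and 92.2 in Dmp1KO and 15.8, 16.2 and 27.4 in Dmp1KO/Fgf23cKO in the chosen cells against 9.91 to 19.7 CPM in the others (log2 2.07 ± 0.51, higher in 10 of 11). Mmp9, a gelatinase, was 107, 10.2 and 165 CPM in WT, 19.6, 2.15 and 1.54 in Fgf23cKO, 0 and 43.3 in Dmp1KO and 4.58, 0.737 and 1.92 in Dmp1KO/Fgf23cKO against 0.223 to 4.16 CPM (3.47 ± 0.76). The values were carried by few cells: those whose osteoclast genes reached 20 UMIs per 10000 numbered 2, 4 and 14 in WT, 4, 3 and 1 in Fgf23cKO, 3 and 3 in Dmp1KO and 1, 0 and 0 in Dmp1KO/Fgf23cKO. Among the other cells they were 0.620% to 1.34% in WT, 0.669% to 0.980% in Fgf23cKO and 0% to 0.438% in Dmp1KO/Fgf23cKO, and in Dmp1KO they made up more of the others (3.96% and 2.93%) than of the chosen cells (1.16% and 1.24%). Dcstamp and Ocstamp, fusion proteins of osteoclasts, were higher by 1.82 ± 0.65 (9 of 11 cultures) and 1.97 ± 0.68. Ocstamp was higher in 6 and lower in 5 of 11 cultures, with 35 UMIs in the chosen cells in all and 0 in those of 5 cultures. Ctsk, the bone-degrading cathepsin K, did not pass the test (1.22 ± 0.61), and Atp6v0d2, a proton pump subunit, was lower (-0.78). Cells of any of these 3 kinds or in cycle made up 53.9%, 43.5% and 52.0% of the chosen cells in WT and 14.4%, 12.5% and 14.5% of the others. In Dmp1KO the shares lay closer, at 31.4% and 30.2% of the chosen and 25.02% and 21.5% of the others. They were 45.7%, 57.6% and 46.7% against 12.01% to 14.4% in Fgf23cKO and 38.2%, 33.9% and 43.6% against 7.07% to 11.7% in Dmp1KO/Fgf23cKO. With the Ccr2, MHC class II and osteoclast cells left out, 3 MHC class II genes were still higher and 1 lower, and 1 osteoclast gene was higher.

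**Figure D3:**
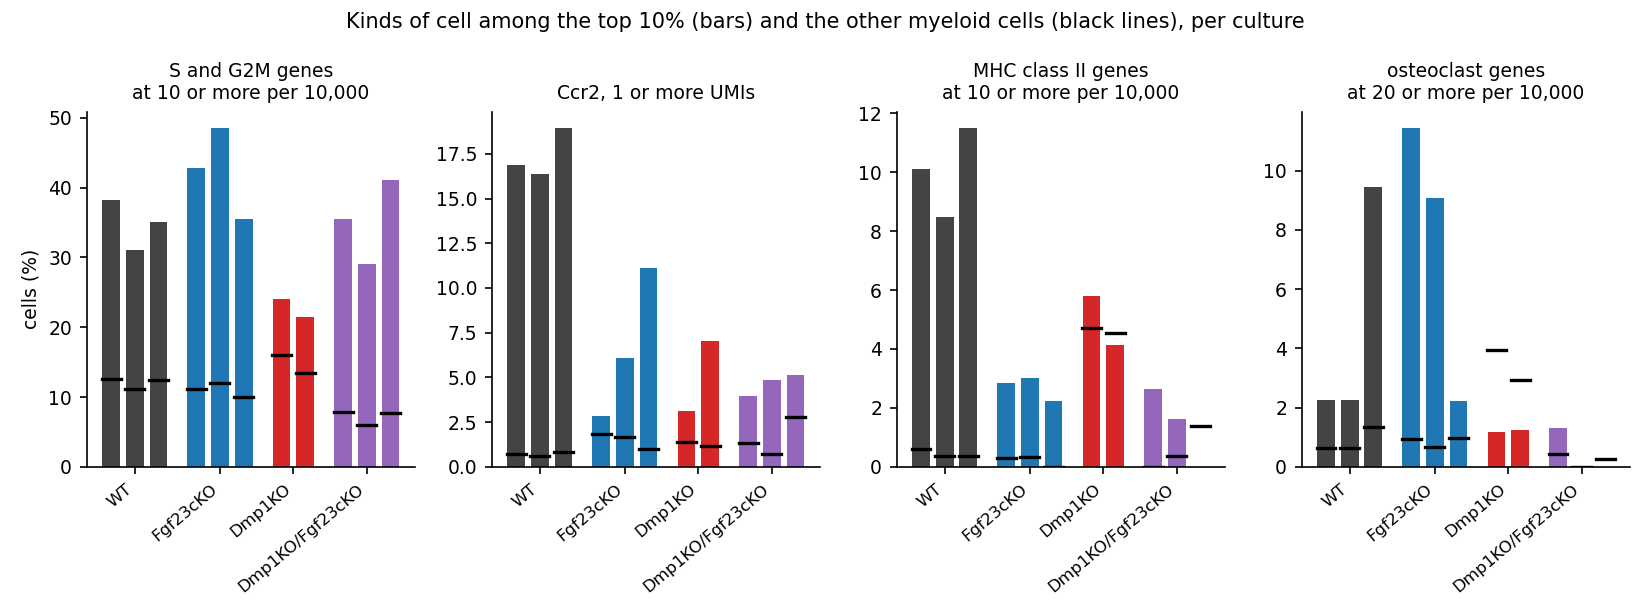
Percent of cells with S and G2M genes at 10 or more UMIs per 10000, with a Ccr2 UMI, with MHC class II genes at 10 or more per 10000 and with osteoclast genes at 20 or more per 10000, at full depth, for each of the 11 tagged cultures in replicate order (bars, the top 10% by score; black lines, the other myeloid cells of the same culture). Ccr2 bars reach 16.4% to 18.9% in WT, and the MHC class II bars of Dmp1KO, 5.81% and 4.13%, lie beside their lines at 4.73% and 4.54%.

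Markers of further cell types were at or near 0 for mast cells and dendritic cells, and low for granulocytes and lymphocytes. The defining dendritic cell genes summed to 0 to 2.02 CPM in the chosen cells of a culture, with Cd209a and Flt3 at 0 UMIs, granulocyte genes to 15.2 to 45.6 CPM, lymphocyte genes to 0 to 28.1 CPM and mast cell genes to 0 to 0.317 CPM. The lymphocyte sum was led by Ighm, the immunoglobulin heavy chain, which was higher in the chosen cells (log2 1.70 ± 0.54, 21.4 and 26.7 CPM in Dmp1KO). Of 5 tested genes shared by dendritic cells and macrophages 3 were lower and 0 higher. Interferon-stimulated genes were higher in 3 and lower in 6 of 13, with the membrane protein gene Ifitm3 at 0.63 ± 0.050 and the antiviral genes Rsad2, Ifit3 and Ifit1 at -1.04, -0.99 and -0.92. Stress genes induced by cell dissociation were higher in 0 and lower in 6 of 13, Ier3 at -1.08 and Jun at -0.57. Of 6 tested FGF receptor and ERK target genes 2 were lower, a share (33.3%) near the 24.7% of all genes, as was that of the interferon-stimulated genes that were higher (23.1%, against 24.1%). The 2 were Dusp6, an ERK phosphatase (-0.74 ± 0.14), and Etv5 (-0.30 ± 0.074).

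The chosen cells were set beside cells at the top of other myeloid scores, where sets unrelated to each other would share 10%. Of the chosen cells of a culture, 0% to 7.36% were also in the top 10% by Marco and Maf, 0% to 8.91% in the top 10% by Cd86 and Cd83, and 2.22% to 22.6% in the top 10% by Itgax, Mmp12 and Lpl. The first 2 shares were under 10% in each culture, while the last was 10.1% to 22.03% in WT, 5.71%, 12.1% and 2.22% in Fgf23cKO, 2.71% and 3.72% in Dmp1KO and 17.9% to 22.6% in Dmp1KO/Fgf23cKO.

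The genotypes were compared next, first for how far the chosen cells stood from the others of their culture. The limit of the score and the scores of the others differed between cultures, and the part of the rule in this distance was not tested. In Dmp1KO the median difference was smaller in size than in WT for the S100, annexin, macrophage, S and G2M, MHC class II and ribosomal protein lists. This did not hold for each list, as the lipid-associated median was larger in size (-0.62, and -0.37 in WT). The trafficking receptor median was smaller (0.20, and 0.35 in WT), while of its 13 differences 3 were higher and 3 lower. Relative to WT, 8.21% of 12724 genes had a higher member-to-other log2 difference in Dmp1KO and 11.6% a lower one (1045 and 1470 genes, edgeR, interaction of genotype and cell group with the culture as a block). The S100a6 difference was 2.79 in WT and 0.87 in Dmp1KO, a change of -1.92 ± 0.18 (adjusted p = 4.86e-05, edgeR). S100a11 changed by -1.65 ± 0.13 and S100a10 by -1.24 ± 0.13, 4 of 6 S100 genes in all with 0 in the other direction. Of the annexin list 9 of 15 were lower and 1 higher, with Vim at -1.29 ± 0.11, Anxa1 at -1.91 ± 0.12 and Crip1 at -1.11 ± 0.14. The score gap itself was narrower in Dmp1KO, with S100a4 ratios of 4.002 and 4.53 against 8.18 to 21.2 elsewhere, and its part in these smaller differences was not tested.

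For macrophage genes, which were lower in the chosen cells, the deficit was smaller in Dmp1KO: 9 of 15 differences were higher and 0 lower (median 0.87). Selenop changed by 1.42 ± 0.12, Apoe by 1.17 ± 0.11, Mertk by 1.06 ± 0.11, Adgre1 by 1.02 ± 0.12 and Csf1r by 0.65 ± 0.10. Selenop was 440.2, 485 and 393 CPM in WT, 295, 429 and 300.01 in Fgf23cKO, 360.2 and 399 in Dmp1KO and 399, 475 and 332 in Dmp1KO/Fgf23cKO in the chosen cells and 1286, 1386 and 1330.03 CPM in WT, 925, 946 and 704 in Fgf23cKO, 355 and 484 in Dmp1KO and 1109, 1189 and 1058 in Dmp1KO/Fgf23cKO in the others. The Selenop gap was wide in 3 genotypes, and in Dmp1KO the values of both cell groups overlapped. Of 18 S and G2M genes 12 were lower and 0 higher (median -1.07), a count that fell to 1 without cells over 2 times the median UMI count. Of 77 ribosomal protein genes 74 were lower and 0 higher (median -0.41), and 42 were lower without Dmp1KO replicate 2. Of 8 MHC class II genes 5 were lower and 0 higher (median -3.52), with 1 lower without Dmp1KO replicate 2 and 0 without Dmp1KO replicate 3. In cells thinned to 2000 UMIs, 79 genes had a higher and 123 a lower difference, among them 7 macrophage genes higher and 6 annexin, 4 MHC class II and 16 ribosomal protein genes lower.

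In thinned cells the share of cycling cells exceeded that of the others by 22.4 ± 4.74 percentage points in WT (SD, n = 3), 25.7 ± 0.899 in Fgf23cKO (n = 3), 6.29 ± 1.23 in Dmp1KO (n = 2) and 25.9 ± 5.16 in Dmp1KO/Fgf23cKO (n = 3). The Dmp1KO excess lay below all the others, 16.2 points under WT, without overlap of the cultures. An exact two-sided permutation test gave p = 0.1 for Dmp1KO against WT (n = 2 and 3), the smallest this design allows, and 0.2 after adjustment over 4 comparisons. For Dmp1KO/Fgf23cKO against Dmp1KO the exact permutation p was likewise 0.1 (adjusted 0.2), for a difference of 19.6 points. Fgf23cKO exceeded WT by 3.23 points and Dmp1KO/Fgf23cKO exceeded WT by 3.42 points, within the spread of the cultures (exact permutation p = 0.4 and 0.5, adjusted 0.5 for both). At full depth these differences were 8.49 and 5.24 points (exact permutation p = 0.2 for both), and with 1 culture left out the thinned ones ran from 0.695 (Fgf23cKO) and 0.456 (Dmp1KO/Fgf23cKO) to 5.39 and 5.58.

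Fewer genes were called in these differences for Fgf23cKO and Dmp1KO/Fgf23cKO. Against WT, 0.228% of genes had a higher and 0.401% a lower member-to-other difference in Fgf23cKO (29 and 51 genes), and 0.684% and 0.597% in Dmp1KO/Fgf23cKO (87 and 76). With 1 WT culture left out these counts fell as low as 2 and 9 for Fgf23cKO and 31 and 24 for Dmp1KO/Fgf23cKO. In Fgf23cKO, S100a6 changed by -0.80 ± 0.17 and S100a11 by -0.75 ± 0.13, and 3 of the 15 annexin and related genes were lower, a count that fell to 0 without WT replicate 2 or WT replicate 3. In Dmp1KO/Fgf23cKO, 3 S and G2M genes, 5 lysosome genes and 3 lipid-associated genes had higher differences and 0 lower ones (1 lysosome gene without WT replicate 3), with Gpnmb at 0.64 ± 0.092 and Fabp5 at 0.62 ± 0.12.

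Between the 2 genotypes without Dmp1, the differences of cell cycle, annexin-related and macrophage genes were wider in Dmp1KO/Fgf23cKO than in Dmp1KO, and that of lipid-associated genes was not. Here 17.0% of genes had a higher and 11.5% a lower member-to-other difference (2162 and 1465). Far fewer were called in thinned cells, as given with the processing below. All 18 S and G2M genes were higher (median 1.65), 14 without Dmp1KO replicate 2 and 0 in thinned cells. S100a6 changed by 1.94 ± 0.18, Vim by 1.36 ± 0.10 and Anxa1 by 1.87 ± 0.12, and 10 of 15 annexin and related genes were higher and 1 lower. Macrophage genes were lower in 8 and higher in 1 of 15 (median -0.79), and 68 of 77 ribosomal protein genes were higher, 27 without Dmp1KO replicate 2 and 0 in thinned cells. Of 14 lipid-associated genes, whose median log2 difference was -0.62 in Dmp1KO and -0.25 in Dmp1KO/Fgf23cKO, 8 changed upward and 1 downward. Osteoclast genes changed upward in 1 and downward in 1 of 7, and MHC class II genes in 0 and 1 of 8.

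**Figure D4:**
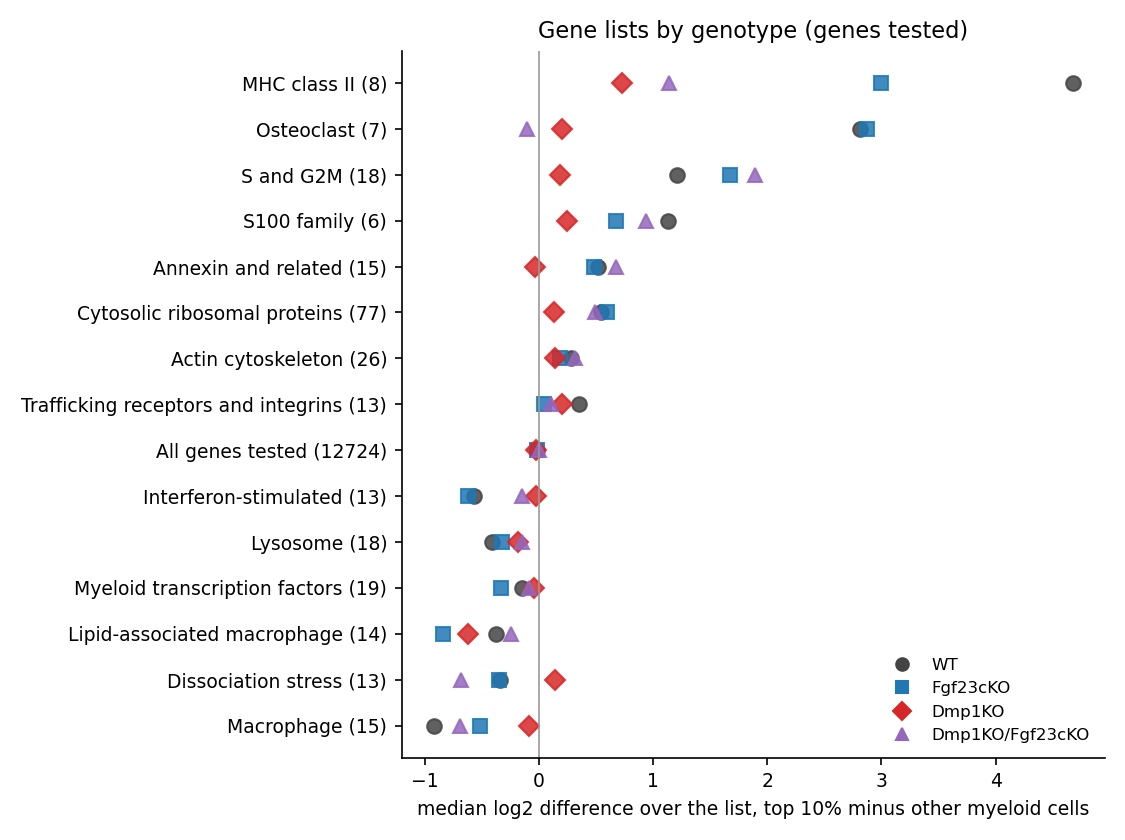
Median log2 difference between the top 10% by score and the other myeloid cells over the tested genes of each list (number of genes in brackets), fitted within each genotype (3, 3, 2 and 3 cultures). All genes tested lie near 0, the Dmp1KO points of the S and G2M, S100 family and annexin lists lie at 0.18, 0.25 and -0.034, and the Dmp1KO point of the macrophage list lies at -0.088.

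The chosen cells were then compared between genotypes directly, without reference to the other cells. Among 10356 genes, 18.7% were higher and 19.1% lower in the chosen cells of Dmp1KO than of WT (1940 and 1979 genes, edgeR, adjusted p under 0.1), 11.5% and 11.5% in Fgf23cKO than in WT (1192 and 1186), 14.9% and 14.7% in Dmp1KO/Fgf23cKO than in WT (1545 and 1522) and 9.28% and 10.6% in Dmp1KO/Fgf23cKO than in Dmp1KO (961 and 1097). The first 3 comparisons share the WT cultures and the last shares both of its groups with them. WT cells were the shallowest, and in cells thinned to 2000 UMIs the counts against WT fell to 607 and 624 for Dmp1KO, 149 and 187 for Fgf23cKO and 298 and 380 for Dmp1KO/Fgf23cKO. The counts for Dmp1KO/Fgf23cKO against Dmp1KO fell in thinned cells too, and without Dmp1KO replicate 3, which leaves 1 Dmp1KO culture.

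In Dmp1KO the chosen cells carried more transcripts of Mfge8 and of lipid-associated macrophage genes than in WT, and so did the other myeloid cells for Mfge8, Spp1, Fabp4, Fabp5, Trem2 and Itgax. Mfge8, which is not on the lipid-associated list, was 5.05, 4.80 and 13.6 CPM in WT, 8.83, 15.1 and 13.8 in Fgf23cKO, 641 and 602 in Dmp1KO and 14.9, 9.96 and 20.2 in Dmp1KO/Fgf23cKO in the chosen cells and 11.3, 16.9 and 38.4 CPM in WT, 17.7, 68.3 and 58.2 in Fgf23cKO, 1387 and 1219 in Dmp1KO and 54.7, 44.8 and 44.3 in Dmp1KO/Fgf23cKO in the others. Mfge8 stood apart in both Dmp1KO cultures and in both cell groups (log2 Dmp1KO over WT in the chosen cells 6.40 ± 0.25, edgeR adjusted p = 2.33e-10). Of 14 lipid-associated genes 11 were higher and 1 lower than in WT (median 1.12). Spp1, the phosphoprotein osteopontin, was 1419, 2177 and 1362 CPM in WT, 1722, 1176 and 1918 in Fgf23cKO, 8352 and 9011 in Dmp1KO and 1757, 2915 and 2684 in Dmp1KO/Fgf23cKO, highest in Dmp1KO (2.52 ± 0.33). In the other cells Spp1 was 13052 and 10246 CPM in Dmp1KO and 1370 to 1502 in WT. Fabp4 was 35.3, 14.4 and 14.97 CPM in WT, 8.83, 19.9 and 10.3 in Fgf23cKO, 120.4 and 137 in Dmp1KO and 18.3, 45.7 and 29.3 in Dmp1KO/Fgf23cKO, again highest in Dmp1KO (2.81 ± 0.42), beside 354 and 286 CPM in the other cells of Dmp1KO and 47.7 to 74.5 in those of WT. Fabp5 was higher by 1.73 ± 0.11, Trem2 by 1.27 ± 0.10 and the integrin gene Itgax by 2.31 ± 0.44, and Lipa, the lysosomal lipase, was lower, at -0.49 ± 0.10. Among the other cells Fabp5 was 4165 and 3731 CPM in Dmp1KO and 1330 to 1462 in WT, Trem2 was 1955 and 1901 and 977 to 1026, and Itgax was 247 and 206 and 9.27 to 20.8.

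Further genes differed between Dmp1KO and WT in the chosen cells, and for the 5 genes given first the gap was also present in the other myeloid cells. Dach1, a transcriptional cofactor, was 1.01, 2.40 and 2.04 CPM in WT, 0.490, 1.62 and 0.513 in Fgf23cKO, 63.9 and 70.3 in Dmp1KO and 1.43, 10.7 and 0.481 in Dmp1KO/Fgf23cKO (5.21 ± 0.68), and the 2 Dmp1KO cultures stood far above the rest, as they did in the other cells (153 and 122 CPM in Dmp1KO and 2.88 to 5.26 in WT). Fat3, an atypical cadherin, was 62.6, 55.9 and 91.2 CPM in WT, 115, 184 and 166 in Fgf23cKO, 467 and 461 in Dmp1KO and 327, 297 and 285 in Dmp1KO/Fgf23cKO (2.86 ± 0.18). Fat3 was lowest in WT, highest in Dmp1KO and between them in the genotypes with cre, in the other cells too (548 and 512 CPM in Dmp1KO and 70.5 to 85.2 in WT). Mamdc2 was 0, 0.601 and 1.36 CPM in WT, 0.490, 0 and 0 in Fgf23cKO, 64.3 and 38.8 in Dmp1KO and 1.72, 1.48 and 0.481 in Dmp1KO/Fgf23cKO (6.19 ± 0.46), again high in Dmp1KO and near 0 elsewhere, and 109 and 93.6 CPM in the other cells of Dmp1KO against 0.959 to 2.59 in those of WT. Marco was 96.9, 232 and 173 CPM in WT, 86.3, 295 and 71.8 in Fgf23cKO, 5.86 and 7.58 in Dmp1KO and 50.98, 39.5 and 27.4 in Dmp1KO/Fgf23cKO, lowest in both Dmp1KO cultures (-4.54 ± 0.83), as in the other cells (12.8 and 13.5 CPM, and 397 to 552 in WT). Kazn, a desmosome-associated protein, was 97.9, 181 and 280.3 CPM in WT, 44.1, 20.5 and 2.56 in Fgf23cKO, 4.27 and 6.72 in Dmp1KO and 47.8, 21.02 and 22.6 in Dmp1KO/Fgf23cKO (-4.98 ± 0.85), highest in the 3 WT cultures, also among the other cells (113 to 133 CPM, and 4.15 and 4.21 in Dmp1KO). Ccr2 was lower in Dmp1KO than in WT (-3.35 ± 0.76, edgeR adjusted p = 0.0142, and 0.111 without Dmp1KO replicate 2), and Ccdc162 (-3.56 ± 0.71) and Gm17268 (-2.99 ± 0.24) fell too. Vim was higher (1.44 ± 0.14) and so was Lgals3 (1.89 ± 0.25), among 9 of 15 annexin and related genes that were higher with 1 lower. Of 14 macrophage genes 6 were higher (42.9%) and 4 lower (28.6%), beside 18.7% and 19.1% of all genes, with Maf at -1.87 ± 0.15 and Mrc1 at -1.02 ± 0.15. Trafficking receptors were lower in 7 (58.3%) and higher in 1 (8.33%) of 12, with the β2 integrin Itgb2 among the lower (-0.68 ± 0.12). Of 76 ribosomal protein genes 52 were higher (68.4%) and 11 lower, a share of 14.5% that is under that of all genes.

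In Fgf23cKO the named genes that rose against WT were Hist1h4d, a histone H4 gene (2.43 ± 0.33), the scaffold gene Iqgap2 (2.07 ± 0.19), the chemokine Cxcl14 (1.82 ± 0.13) and the pair AY036118 (2.19 ± 0.13) and Gm42418 (1.96 ± 0.13), which overlap each other on opposite strands so that their reads cannot be assigned with certainty. Iqgap2 was 26.3, 27.03 and 19.1 CPM in WT, 92.7, 135 and 84.1 in Fgf23cKO, 26.7 and 25.5 in Dmp1KO and 71.3, 55.3 and 63.5 in Dmp1KO/Fgf23cKO, highest in Fgf23cKO. Thbs1, the matrix glycoprotein thrombospondin, was 85.8, 88.3 and 98.7 CPM in WT, 8.83, 7.004 and 15.9 in Fgf23cKO, 17.1 and 39.1 in Dmp1KO and 31.5, 39.8 and 18.8 in Dmp1KO/Fgf23cKO and highest in the 3 WT cultures (-3.13 ± 0.45). Kazn (-3.10 ± 0.70), Gm11290 (-2.98 ± 0.36), Ccdc162 (-2.90 ± 0.69) and Ccr2 (-3.04 ± 0.75) were lower. Means of the other cells lay the same way between WT and Fgf23cKO, at 74.6 and 167 CPM for Iqgap2, 27.6 and 111 for Cxcl14, 121 and 42.4 for Thbs1 and 125 and 24.3 for Kazn. Trafficking receptors were lower in 7 (58.3%, beside 11.5% of all genes) and higher in 0 of 12, with Itgb2 at -0.94 ± 0.11, the fractalkine receptor Cx3cr1 at -1.16 ± 0.27 and Selplg at -0.71 ± 0.16. Cell cycle genes were higher in 4 (22.2%, beside 11.5% of all genes) and lower in 0 of 18, Mki67 by 1.06 ± 0.17.

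In Dmp1KO/Fgf23cKO the named genes that rose against WT were Cxcl1, Cd83, Tnfaip3, Fat3 and Gm42031. Cxcl1, a chemokine that draws neutrophils, was 41.4, 18.02 and 23.1 CPM in WT, 37.8, 77.6 and 49.7 in Fgf23cKO, 42.6 and 52.6 in Dmp1KO and 113, 91.4 and 176 in Dmp1KO/Fgf23cKO (2.20 ± 0.41). Cd83, a surface protein of activated antigen-presenting cells, was 23.2, 29.4 and 25.9 CPM in WT, 35.8, 56.6 and 55.4 in Fgf23cKO, 73.9 and 65.5 in Dmp1KO and 101, 149 and 69.8 in Dmp1KO/Fgf23cKO (1.93 ± 0.30) and in the other cells of Dmp1KO/Fgf23cKO it was 230.0, 243 and 226 CPM. Tnfaip3, the NF-κB inhibitor A20, was 24.2, 22.2 and 21.1 CPM in WT, 45.6, 74.3 and 58.98 in Fgf23cKO, 70.7 and 65.7 in Dmp1KO and 82.5, 65.998 and 68.3 in Dmp1KO/Fgf23cKO, lowest in the 3 WT cultures (1.62 ± 0.17). Among the other cells the means of WT and Dmp1KO/Fgf23cKO also differed in this direction, at 19.9 and 79.02 CPM for Cxcl1, 65.2 and 233 for Cd83 and 34.4 and 96.7 for Tnfaip3. In the chosen cells Fat3 and Gm42031 were higher by 2.04 ± 0.17 and 1.80 ± 0.25. Hal, histidine ammonia-lyase, was 70.7, 67.3 and 72.8 CPM in WT, 30.4, 22.6 and 25.1 in Fgf23cKO, 28.8 and 37.7 in Dmp1KO and 1.15, 1.48 and 0 in Dmp1KO/Fgf23cKO, close to 0 in Dmp1KO/Fgf23cKO alone (-6.20 ± 0.31). In the other cells it was 80.6 to 92.7 CPM in WT and 0.949 to 1.55 in Dmp1KO/Fgf23cKO, so that the gap was not confined to the chosen cells. Ctsk was 412, 205 and 682 CPM in WT, 777, 293 and 149.7 in Fgf23cKO, 111 and 207 in Dmp1KO and 52.7, 18.8 and 13.5 in Dmp1KO/Fgf23cKO, low in the 3 Dmp1KO/Fgf23cKO cultures (-3.91 ± 0.89), with means of 62.4 CPM in the other cells of WT and 32.4 in those of Dmp1KO/Fgf23cKO. MHC class II genes were lower in 6 and higher in 0 of 7 (median -2.73), with H2-Eb1 at -3.35 ± 0.77, H2-Ab1 at -2.95 ± 0.76, Cd74 at -2.36 ± 0.51 and Ciita at -5.15 ± 0.87 (3 of 7 lower without WT replicate 3). Mt3, a metallothionein, was 4.04, 7.21 and 263 CPM in WT, 38.2, 0.539 and 25.6 in Fgf23cKO, 0 and 13.3 in Dmp1KO and 0.859, 0 and 0 in Dmp1KO/Fgf23cKO, and its call (-7.94 ± 2.79, edgeR adjusted p = 0.0863) rested on WT replicate 3. Mmp9 was lower too (-5.18 ± 1.83, edgeR adjusted p = 0.0872), by a call lost in 10 alternatives. Of 6 S100 genes tested 5 were lower (83.3%, beside 14.7% of all genes) and 0 higher, S100a6 at -0.66 ± 0.16 and S100a11 at -0.85 ± 0.18.

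Between Dmp1KO/Fgf23cKO and Dmp1KO, the genes that had set Dmp1KO apart differed again. Mfge8 was lower in Dmp1KO/Fgf23cKO, at -5.61 ± 0.20, Mamdc2 at -5.44 ± 0.34, Dach1 at -4.18 ± 0.49, Fabp4 at -2.27 ± 0.34 and Spp1 at -2.03 ± 0.32, and lipid-associated genes were lower in 9 and higher in 0 of 14 (median -0.65). Cbr2, a carbonyl reductase, was 38.4, 33.03 and 25.2 CPM in WT, 71.1, 45.3 and 28.2 in Fgf23cKO, 15.7 and 8.79 in Dmp1KO and 72.5, 73.7 and 114 in Dmp1KO/Fgf23cKO and higher than in Dmp1KO by 2.59 ± 0.41. Gm42031 (3.07 ± 0.26), the kinase gene Pomk (1.79 ± 0.21), the elastase gene Cela1 (1.58 ± 0.26) and the lysosomal acetyltransferase gene Hgsnat (1.56 ± 0.15) were higher. Cell cycle genes were higher in 8 (44.4%, beside 9.28% of all genes) and lower in 0 of 18. Annexin and related genes were lower in 7 and higher in 0 of 15, and S100 genes in 5 and 0 of 6. The lower shares, 46.7% and 83.3%, stood beside 10.6% of all genes. Without Dmp1KO replicate 3 the cell cycle count fell to 2, the annexin count to 0 and the S100 count to 3, and without Dmp1KO replicate 2 the annexin count fell to 2. Ribosomal protein genes were lower in 72 and higher in 0 of 76 (median -0.63).

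FGF receptor and ERK target genes were read because the floxed gene encodes an FGF. Of 6 tested in the chosen cells, 4 were lower in Dmp1KO than in WT, 2 in Fgf23cKO and 2 in Dmp1KO/Fgf23cKO, and 0 were higher. These shares that were lower, 66.7%, 33.3% and 33.3%, stood beside 19.1%, 11.5% and 14.7% of all genes. In Dmp1KO/Fgf23cKO against Dmp1KO 1 of the 6 was higher (16.7%, all genes 9.28%) and 0 were lower (all genes 10.6%). Fgfr2, an FGF receptor, was lower in all 3 against the same WT cultures, at -2.11 ± 0.21, -1.45 ± 0.19 and -1.71 ± 0.19, and Dusp6 at -0.997 ± 0.14, -0.40 ± 0.14 and -0.73 ± 0.13. Stromal transcripts were read between genotypes as well. Of 9 tested stromal genes outside the rule, 2 were higher and 3 lower in Dmp1KO than in WT (22.2% and 33.3%, beside 18.7% and 19.1% of all genes). Against WT, 4 and 1 differed in Fgf23cKO (all genes 11.5% and 11.5%) and 6 and 1 in Dmp1KO/Fgf23cKO (all genes 14.9% and 14.7%). In Dmp1KO/Fgf23cKO 4 were higher and 0 lower than in Dmp1KO (all genes 9.28% and 10.6%). Ibsp and Bglap, bone matrix genes of osteoblasts, were in the myeloid droplets lower in Dmp1KO than in WT, at -2.06 ± 0.24 and -2.15 ± 0.39 and higher in Dmp1KO/Fgf23cKO than in Dmp1KO by 2.85 ± 0.20 and 3.39 ± 0.31. The part of free stromal RNA in the genotype differences of other genes was not tested.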

How the data were processed

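Single-cell 3′ RNA-Seq libraries (10x Genomics, v3.1 chemistry with culture tags) were made by the authors from live-sorted cells. Per the labels, Cell Ranger 7.0.1 was run in 2 passes with demultiplexing by tag in between, the genome build was mm10, and multiplets were removed by tag. The deposited values are UMI counts per gene and cell, without normalization, for 32285 genes and 12 tags, which were left out. No further doublet caller was run. Cells without a tag (sample number 4 of each genotype) entered tests only as an alternative, and Dmp1KO replicate 1 was not analysed here.

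Counts were summed per culture over the chosen and over the other myeloid cells. The 29 genes of the rule, mitochondrial genes included, stayed out of the tests. edgeR 4.0.16 in R 4.3.3 (TMM factors, filterByExpr, quasi-likelihood test, Benjamini-Hochberg adjustment over all genes tested, threshold 0.1 as in the study's methods) was used for the chosen against the other cells with the culture as a block, for genotypes within the chosen cells, and for the interaction of both. CPM are counts per 1000000 gene UMIs of the summed cells. Two-sided exact permutation tests over all regroupings of the cultures compared the excess of cycling cells between genotypes. Genes named had a mean of at least 50 CPM, an adjusted p under 0.1 and, for the first comparison, the same direction in all 11 cultures, and were the 12 (genotypes: 5) largest differences each way, some of which are not reported here. Shares of cycling cells were compared between genotypes in cells thinned to 2000 UMIs and at full depth. Shares of cells with Ccr2, MHC class II or osteoclast genes were counted at full depth, with those of Ccr2 in WT given for thinned cells too. Alternatives were DESeq2 1.42.0, RLE factors, no filter on low counts, a threshold of 0.05, the top 5% or 20% of cells, thinned cells, a choice of cells matched on depth, a choice on 1 random part of the UMIs and measurement on the rest, and leaving out cultures or kinds of cell. Scripts were tested on simulated data. The members and gene lists were chosen with earlier results of these data known. The score without S100a4 and the settings without deep cells, without Ccr2, MHC class II and osteoclast cells, and without cycling cells for the genotype comparisons were chosen after seeing the data.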

Additional observations from a re-analysis of the deposited data

Results flagged for a closer look

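Differences between genotypes in how far a gene stood apart in the S100a4-high cells were tested by edgeR's interaction of genotype and cell group, with the culture as a block. Genes among the 5 largest changes in each direction are given for each of 4 comparisons as the change in log2 difference ± SE. Groups held at most 3 cultures, and single cultures were not tested for standing apart from their group.

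In Dmp1KO against WT, Pf4, a chemokine of platelets and macrophages, changed by 1.54 ± 0.14 (adjusted p = 3.41e-07), being lower in the S100a4-high cells of WT (-0.90) and higher in those of Dmp1KO (0.64). Fcgr2b, the inhibitory Fc receptor, changed by 1.48 ± 0.13, the antisense gene 5033421B08Rik by 1.48 ± 0.24, the endosomal exchanger Slc9a9 by 1.43 ± 0.14 and Selenop by 1.42 ± 0.12. Fcgr2b was 138, 160.4 and 172 CPM in WT, 134, 143 and 91.8 in Fgf23cKO, 149.6 and 131 in Dmp1KO and 139, 139 and 134 in Dmp1KO/Fgf23cKO in the S100a4-high cells and 462, 530.2 and 503 CPM in WT, 350.4, 387 and 256 in Fgf23cKO, 133 and 177 in Dmp1KO and 418, 428 and 399 in Dmp1KO/Fgf23cKO in the others, which were lowest in Dmp1KO. The largest changes downward were those of H2-Aa (-4.63 ± 1.05, adjusted p = 0.0253), H2-Eb1 (-4.54 ± 0.98), Cd74 (-4.44 ± 1.16), H2-Ab1 (-3.78 ± 0.91) and Ctsk (-3.48 ± 1.0005, adjusted p = 0.0612). The calls of these genes were lost in 4, 2, 6, 3 and 9 alternatives.

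In Fgf23cKO against WT, 5033421B08Rik changed by 1.02 ± 0.25, Iqgap2 by 0.96 ± 0.19, the tubulin-binding Stmn1 by 0.74 ± 0.15 and the mitotic kinesin Kif11 by 0.72 ± 0.17. These upward calls were lost in thinned cells and with the score without S100a4. With that score 5033421B08Rik (-0.19) and Kif11 (-0.17) changed sign. Downward, Sirpb1c, a paired immunoglobulin-like receptor with close relatives in the genome, changed by -1.42 ± 0.18 (adjusted p = 9.74e-05), the fatty acid-binding Fabp7 by -1.42 ± 0.26, F13a1 by -1.36 ± 0.22, Hal by -1.16 ± 0.20 and the secretory kinase Fam20c by -1.13 ± 0.14. Sirpb1c was 85.8, 94.9 and 97.97 CPM in WT, 36.3, 33.9 and 56.4 in Fgf23cKO, 26.6 and 27.4 in Dmp1KO and 25.8, 17.3 and 22.1 in Dmp1KO/Fgf23cKO in the S100a4-high cells and 8.26 to 19.6 CPM in the others, highest in the S100a4-high cells of WT.

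In Dmp1KO/Fgf23cKO against WT, the thymidine kinase Tk1 changed by 1.04 ± 0.20, Pf4 by 1.03 ± 0.13 (adjusted p = 0.000397), the replication stress gene Zranb3 by 0.998 ± 0.21, the aminopeptidase Anpep by 0.99 ± 0.19 and the DNA ligase Lig1 by 0.93 ± 0.16. In cells thinned to 2000 UMIs Lig1 changed sign (-0.14). Downward were Sirpb1c (-1.33 ± 0.19), the osteoclast and macrophage adaptor Pstpip2 (-1.16 ± 0.16), the transporter Abca9 (-0.96 ± 0.24), the receptor kinase Axl (-0.96 ± 0.21) and Nfatc1, the master factor of osteoclasts (-0.93 ± 0.24).

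In Dmp1KO/Fgf23cKO against Dmp1KO, the elastase Mmp12 changed by 2.39 ± 0.67 (adjusted p = 0.0397), the cytokinesis gene Prc1 by 2.30 ± 0.36, Fgf13 by 2.27 ± 0.17 (adjusted p = 2.01e-09), the mitotic gene Cdca8 by 2.25 ± 0.24 and the linker histone Hist1h1b by 2.20 ± 0.39. Downward were Tbc1d4 (-1.51 ± 0.29), Fcgr2b (-1.44 ± 0.12), the early response gene Ier3 (-1.43 ± 0.14) and Fcgrt, the neonatal Fc receptor (-1.41 ± 0.12). Mmp12 was 381, 783 and 623 CPM in WT, 104, 92.1 and 505 in Fgf23cKO, 866 and 816 in Dmp1KO and 827, 765 and 517 in Dmp1KO/Fgf23cKO in the S100a4-high cells and 685, 380.4 and 585 CPM in WT, 638, 443 and 709 in Fgf23cKO, 2409.6 and 1946 in Dmp1KO and 376, 343 and 328 in Dmp1KO/Fgf23cKO in the others, so that it was lower in the S100a4-high cells of Dmp1KO and higher in those of Dmp1KO/Fgf23cKO.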

How the results depend on the processing

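Counts of genes are given as higher and lower. Thinning every cell to 2000 UMIs left 1029 and 1012 genes for the S100a4-high against the other cells. Within the S100a4-high cells it left 607 and 624 for Dmp1KO against WT, 149 and 187 for Fgf23cKO against WT, 298 and 380 for Dmp1KO/Fgf23cKO against WT and 267 and 383 for Dmp1KO/Fgf23cKO against Dmp1KO, and for the member-to-other differences, in the same order, 79 and 123, 0 and 12, 7 and 2, and 45 and 40. The score without S100a4 gave 1484 and 1686 genes for the S100a4-high against the other cells, and differences of 539 and 667 (Dmp1KO against WT) and 0 and 3 (Fgf23cKO against WT). Taking the top 20% gave, within the chosen cells, 1913 higher (Fgf23cKO against WT), 2318 higher (Dmp1KO/Fgf23cKO against WT) and 2093 and 2092 (Dmp1KO/Fgf23cKO against Dmp1KO), and 8 and 23 differences for Fgf23cKO against WT. For Dmp1KO/Fgf23cKO against Dmp1KO within the chosen cells DESeq2 called 530 higher and a threshold of 0.05 621 higher. For the member-to-other differences the threshold of 0.05 left 11 and 30 (Fgf23cKO against WT) and 52 and 45 (Dmp1KO/Fgf23cKO against WT), no filter on low counts gave 96 and 144 and 178 and 207, and untagged samples gave 13 and 32, and 55 higher. Without cells over 2 times the median UMIs the differences numbered 614 and 834 (Dmp1KO against WT), 47 higher (Fgf23cKO against WT), 44 higher (Dmp1KO/Fgf23cKO against WT) and 1344 and 919 (Dmp1KO/Fgf23cKO against Dmp1KO), and without cycling cells 562 and 760, 28 lower, 44 and 40, and 1309 and 791. Thinning both lowered the UMIs tested and chose the cells again from the thinned counts. The cause of a change in counts was not tested for any setting.

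Leaving out 1 culture gave 2823 to 3188 and 2789 to 3369 genes for the S100a4-high against the other cells. Within the S100a4-high cells it gave 1330 (without Dmp1KO replicate 3) to 2070 and 1182 to 2102 for Dmp1KO against WT, 764 (without WT replicate 2) to 1277 and 842 to 1235 for Fgf23cKO, 1080 (without WT replicate 3) to 1696 and 1145 to 1635 for Dmp1KO/Fgf23cKO, and 258 (without Dmp1KO replicate 3) to 1175 and 468 to 1270 for Dmp1KO/Fgf23cKO against Dmp1KO. For the member-to-other differences it gave 461 (without Dmp1KO replicate 2) to 1204 and 602 to 1646, 2 (without WT replicate 3) to 69 and 9 (without WT replicate 2) to 93, 31 (without WT replicate 2) to 161 and 24 (without WT replicate 3) to 115, and 1048 (without Dmp1KO replicate 2) to 2358 and 695 to 1646. With 1 Dmp1KO culture left, that culture is assumed to vary like the other genotypes. The difference in cycling excess ranged from -18.7 to -14.0 points (Dmp1KO against WT), 0.695 to 5.39 (Fgf23cKO), 0.456 to 5.58 (Dmp1KO/Fgf23cKO) and 16.6 to 21.3 (Dmp1KO/Fgf23cKO against Dmp1KO), and at full depth it was -14.7, 8.49, 5.24 and 19.9.

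Changes of sign were found for Lig1 (-0.14) in Dmp1KO/Fgf23cKO against WT in thinned cells, and for 5033421B08Rik (-0.19) and Kif11 (-0.17) in Fgf23cKO with the score without S100a4. Replicate numbers did not pair the cultures: deviations of same-numbered cultures correlated by -0.0472 to 0.0968 (15 pairs, median 0.0304) and of others by -0.126 to 0.0696 (30 pairs). With the replicate number as a block the counts within the S100a4-high cells were 1853 and 1880, 1187 and 1185, 1521 and 1499, and 809 and 975, and without the culture as a block the first comparison gave 3331 and 3384. The member-to-other differences already have the culture as a block and were not run with DESeq2.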

Other observations

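The untagged cells of each genotype, which entered tests only as an alternative, were split by the same rule into 31, 76, 50 and 13 chosen cells for WT, Fgf23cKO, Dmp1KO and Dmp1KO/Fgf23cKO. S100a4 was 2811, 2219.6, 2188 and 1094 CPM in them and 142, 194, 529.9 and 73.3 CPM in the other untagged myeloid cells, in that order. S100a6 was 1853, 1882, 2212 and 1195 CPM against 319.5, 440.4, 1154 and 123 CPM.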
